A study of Mus musculus with 4 samples.

Results

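The comparison set the macrophages titled CD163 against those titled Trem2, both sorted from mouse hearts, as the log2 value of each gene in the CD163 library minus its value in the Trem2 library. Each population was 1 library on 1 array, so 2 of the 4 arrays of the series entered the difference. It was taken for all 19505 genes that the platform annotation names, of which 8532 were measured, meaning above the background of at least 1 of these libraries. All groups were wild-type C57BL/6N mice, 15 to 16 weeks old, after transverse aortic constriction (TAC), an operation that narrows the aorta and so overloads the left ventricle. The sort started from 6 hearts mixed together, so no animal can be told from another. The source names place sampling 8 weeks after surgery, while the growth protocol says 1 week. In the growth protocol a Lyve1 population stands in the place of CD163, so the libraries are called here by their titles. With 1 array per population no difference has a replicate check, no test was possible, and precision is limited by the number of arrays.

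Macrophages of the heart include long-lived resident cells, which carry the hyaluronan receptor Lyve1, the folate receptor Folr2, the phosphatidylserine receptor Timd4 and the haemoglobin scavenger receptor Cd163, and cells that arise from blood monocytes, which carry Ccr2 and Ly6c2 and can present antigen on MHC class II. Trem2 is a lipid-sensing receptor that signals through the adaptor Tyrobp and marks macrophages loaded with lipid. Neutrophils, short-lived granulocytes that enter injured tissue, share many surface proteins with monocytes and macrophages but make granule proteins and receptors of their own.

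Values are the deposited log2 values, which stop at 19.93, or the log2 of 1000000, and a gene there is called saturated. Background was read from 1498 genes of chemosensory receptors (olfactory, vomeronasal, taste) and keratin-associated proteins, and their 95th percentile in a library was taken as its ceiling. The ceiling was 6.28 in CD163 and 5.51 in Trem2, with 4984 and 8144 genes above it, and 16 and 20 genes were saturated. The median over all probe sets was 5.32 in CD163 and 5.21 in Trem2, but the 95th percentile was 9.06 against 10.21, so the columns did not share a distribution. The Ccrl2 and CD74 libraries, which the difference does not use, had 7454 and 3621 genes above their ceilings of 5.67 and 6.53. Values near the top were coarse: of the 59 genes with a mean of 17 or more and no saturation, 12 (20.3%) had the same value in CD163 and Trem2, against 29 of 6379 (0.455%) with a mean from 5 to 8. To count as higher in a library a gene had to lie above its ceiling there and at least 2-fold above the other library, with a value under its ceiling first raised to the ceiling. A fold that rests on such a raised value, or on a saturated one, is a lower bound and is written as "at least".

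Many more genes were higher in the Trem2 library than in the CD163 library on the deposited values, and quantile normalization turned that split while median centring widened it. On the deposited values 518 of the 8532 measured genes (6.07%) were higher in CD163 and 2354 (27.6%) in Trem2. Quantile normalization gives all columns 1 distribution, and with it 1331 (15.6%) were higher in CD163 and 826 (9.68%) in Trem2, so that CD163 took 61.7% of the counted genes in place of 18.0%. With median centring of the columns the counts were 345 and 2741. All 518 genes and 824 of the 2354 were counted both on the deposited values and after quantile normalization, and 0 changed sides. The median difference over measured genes was -0.69, and -0.18 after quantile normalization, a shift of 0.51. Over all 19505 genes it was -0.01, with 2.66% counted as higher in CD163 and 12.1% in Trem2. The gene lists below, counted over their genes on the array, are read against these shares. For lists measured almost in full, the shares over measured genes are the closer background: 6.07% and 27.6%, or 15.6% and 9.68% after quantile normalization. Differences of 4-fold or more were held by 50 genes in CD163 and 827 in Trem2, and of 16-fold or more by 3 and 75.

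The genes higher in CD163 were mostly dim. Of the 518, 384 had a CD163 value under 8 and 61 had 10 or more, while 694 of the 2354 genes higher in Trem2 had a Trem2 value of 10 or more. Background genes moved with this: 133 of the 1498 were measured, 39 of those (29.3%) were counted as higher in CD163 and 0 in Trem2. They made up 7.53% of the genes higher in CD163, and none was above 7.63 there. Ribosomal protein genes lay on the other side: of 56 measured, 50 were higher in Trem2, with a median difference of -2.70, and after quantile normalization 33, with a median of -1.46. For dim genes the rule itself favours counts toward CD163, since the ceiling that the other value is raised to is 5.51 in Trem2 and 6.28 in CD163. The part of background and scaling in the dim differences was not tested. At the 2-fold margin, Ankub1 and Gorasp1 lay just inside for CD163 (both 1.00, with the Trem2 value raised to the ceiling) and Ddx51 and Fcna just outside (0.99). For Trem2, Emsy and Idnk lay just inside (-1.0) and Sap30 and Ctdnep1 just outside (-0.99).

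**Figure D1:**
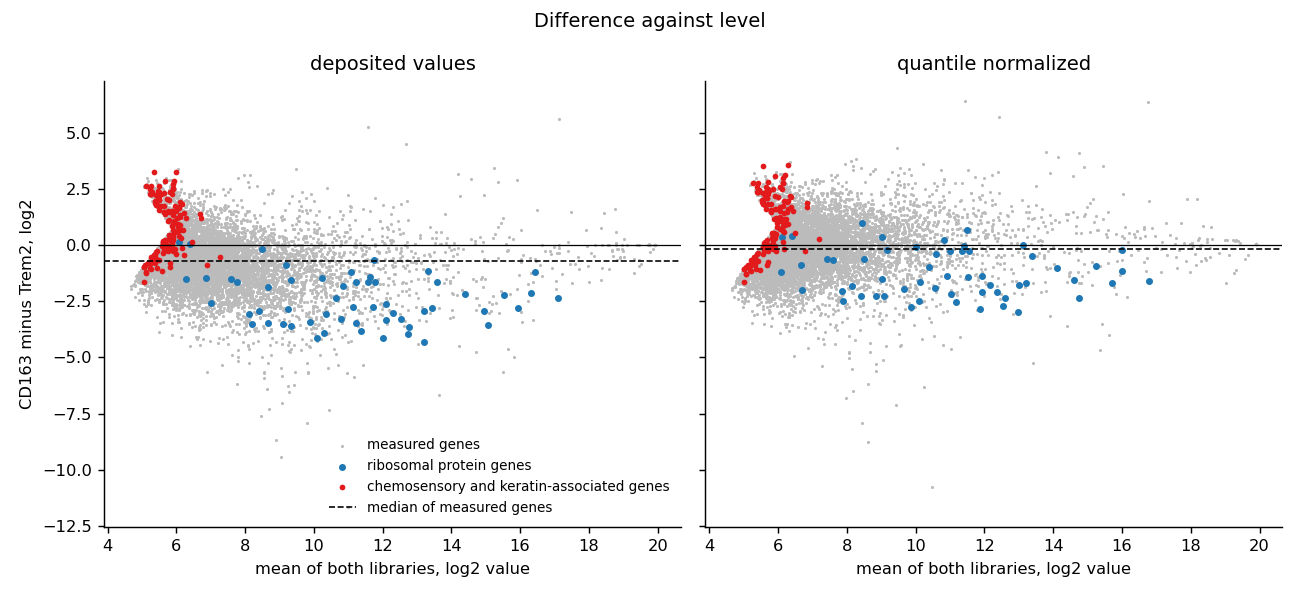
CD163 minus Trem2 on the log2 scale (vertical axis) against the mean of both libraries (horizontal axis, log2 value), 1 point per measured gene, for deposited values on the left and after quantile normalization on the right. The dashed line is the median over measured genes, -0.69 on the left and -0.18 on the right. Red background genes lie at the dim end and many lie above 0, and blue ribosomal protein genes lie mostly below the line in both panels.

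The genes for which the populations are named did not all separate the libraries. Cd163 read 14.51 in CD163, 13.11 in Trem2, 13.01 in Ccrl2 and 4.96 in CD74. It was thus 2.64-fold higher in CD163 than in Trem2, and bright in both. Trem2 read 6.71 in CD163, 7.20 in Trem2, 7.17 in Ccrl2 and 5.94 in CD74. The library titled Trem2 was 0.49 above CD163 for the gene of its own title, less than the 2-fold margin, and 0.16 below it after quantile normalization. Ccrl2, an atypical chemerin receptor, read 14 in CD163 and 16.59 in Trem2, 6.02-fold higher in Trem2, where it equalled its value of 16.58 in the Ccrl2 library to within 0.01. Cd74 was not analysed here. The array reads RNA and the sort read surface protein, which these values do not measure.

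Of the 15 largest differences toward CD163, 6 were in genes of the resident macrophage list, among them the first and the third. Lyve1 was saturated in CD163 and read 14.32 in Trem2, 13.88 in Ccrl2 and 5.56 in CD74, at least 48.8-fold higher in CD163 than in Trem2. Lyve1 is among the sort marker genes, and the growth protocol names a Lyve1 population. Its difference therefore cannot be told apart from the sort itself. Folr2 read 14.94 in CD163, 10.43 in Trem2, 9.93 in Ccrl2 and 6.49 in CD74, 22.8-fold higher in CD163 than in Trem2. The CD163 library was the highest of the 4 for both genes, and Trem2 still read well above its ceiling of 5.51. Emp1, a tetraspan membrane protein, read 14.20 against 8.93 in Trem2 (38.6-fold). Pmp22, another tetraspan protein, read 16.95 against 13.51, and the endothelin receptor Ednrb 11.17 against 7.79. Further down were the protease inhibitor Timp2 (15.79 against 12.61), the phospholipid transfer protein Pltp (16.05 against 13.10) and Tmem106a (16.77 against 13.95). Among the 9 genes outside the list, the cell cycle kinase Pkmyt1 (9.49 against 6.66), the nuclear scaffold factor Safb (9.67 against 7.03) and Tex29 (9.42 against 6.81) were also high in the CD74 library, at 8.34, 8.96 and 8.16.

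Toward Trem2 the differences were larger and led by genes of neutrophils and antigen presentation. Retnlg, a resistin-like secreted protein of neutrophils, read 5.17 in CD163, under its ceiling, and 16.81 in Trem2, at least 1479-fold higher. It read 6.83 in Ccrl2 and 7.15 in CD74, so the Trem2 library stood apart from all 3 others. Acod1, which makes itaconate, read 4.32 in CD163 and 13.77 in Trem2. Hdc, which makes histamine, read 5.85 and 13.77. Both were at least 180-fold higher in Trem2. The MYC antagonist Mxd1 (5.56 and 12.60), the glutathione reductase Gsr (6.18 and 11.99), the retention signal Cd69 (6.10 and 12.39) and the integrin regulator Cytip (5.04 and 12.35) were at least 52.3-fold higher in Trem2. Cd69 and Cytip were higher still in CD74, at 13.52 and 13.90, whereas Mxd1 and Gsr read 8.38 and 8.44 there.

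**Figure D2:**
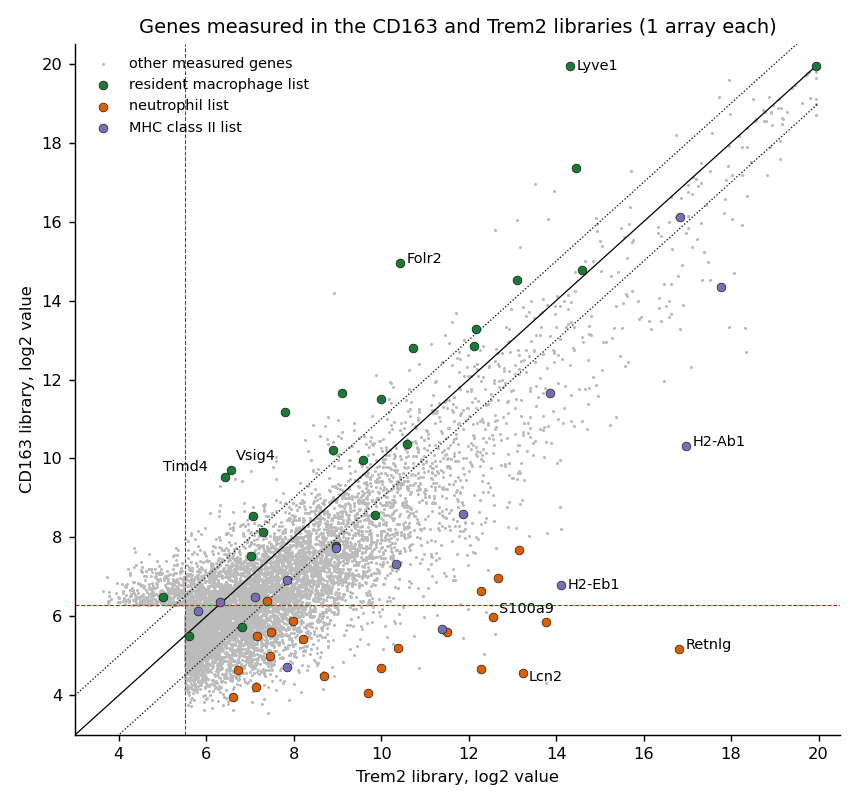
Log2 value in the CD163 library (vertical axis) against the Trem2 library (horizontal axis) for each measured gene, 1 array each, with list members coloured. The solid line marks equal values, the dotted lines 2-fold differences and the red dashed lines the ceilings of 6.28 and 5.51. Green resident macrophage genes such as Lyve1 and Folr2 lie above the diagonal, and orange neutrophil genes lie below it, most of them under the CD163 ceiling.

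Of 30 resident macrophage genes on the array, 13 were higher in CD163 and 2 in Trem2, and after quantile normalization 20 and 0. The median difference was 1.00 against -0.01 over all genes. Genes above the ceiling numbered 23 in CD163 and 24 in Trem2, so the list was present in both libraries and differed in level. Among the 15 scavenger and surface receptors, the complement receptor Vsig4 read 9.71 in CD163 and 6.57 in Trem2 (8.82-fold), and Timd4 read 9.54 and 6.42 (8.69-fold). Ccrl2 and CD74 were at 5.65 and 4.51 for Vsig4 and at 7.82 and 6.02 for Timd4, all below CD163. Against this, the mannose receptor Mrc1 was saturated in both, and the scavenger receptor Stab1 read 8.56 in CD163 and 9.86 in Trem2, 2.46-fold higher in Trem2. The lectin Clec4n, at 7.77 and 8.96, was the other member higher in Trem2, and neither was counted after quantile normalization. Cd209f, Cd209g, Cd209b, Marco and Cd5l were under the ceiling in both.

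The other 15 resident macrophage genes were more uniform: 8 were higher in CD163, 0 in Trem2, and 13 and 0 after quantile normalization. They were mostly secreted proteins and enzymes, but the group also held the transcription factor Maf, the receptor Ednrb and the iron exporter Slc40a1. The coagulation factor subunit F13a1 read 17.36 in CD163 and 14.45 in Trem2 (7.52-fold). Cfp, the complement stabiliser properdin, read 11.65 and 9.11 (5.82-fold). Gas6, which bridges dying cells to the receptors Mertk and Axl, read 12.81 and 10.72 (4.26-fold). The transcription factor Maf (11.51 and 9.99), the carbonyl reductase Cbr2 (13.29 and 12.17) and the chemokine Ccl24 (8.53 and 7.06) were between 2.17-fold and 2.87-fold higher in CD163. Igf1, a growth factor, at 12.84 and 12.13, and the prostaglandin dehydrogenase Hpgd, at 14.78 and 14.58, lay within 2-fold on the deposited values and were counted as higher in CD163 after quantile normalization. Pf4 (10.36 and 10.58) was slightly higher in Trem2 on the deposited values and was counted as higher in CD163 after quantile normalization, so its direction rests on the scaling.

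Of 35 neutrophil genes on the array, 0 were higher in CD163 and 18 in Trem2, and after quantile normalization 0 and 14, with a median difference of -2.09. Above the ceiling were 22 of them in Trem2 but 4 in CD163, with 13 in Ccrl2 and 10 in CD74. The log2 of the summed level of the list was 10.17 in CD163 and 17.44 in Trem2. The list divided by role. Of 16 granule and antimicrobial proteins 5 were higher in Trem2: the calcium-binding pair S100a8 (4.66 in CD163, 12.29 in Trem2) and S100a9 (5.99 and 12.55), the siderophore-binding protein Lcn2 (4.57 and 13.23), Ngp (4.68 in CD163, at least 13.2-fold higher in Trem2) and the collagenase Mmp8 (5.42 and 8.20). The granule proteins Ltf, Camp, Mpo, Elane, Prtn3 and Ctsg were under the ceiling in both, between 4.17 and 5.06, as were Cd177 and Padi4. These granule genes were thus at background in the library that was highest for Retnlg.

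Of the 19 surface receptors, cytokines and maturation genes, 13 were higher in Trem2. Csf3r, the G-CSF receptor, read 7.67 in CD163 and 13.16 in Trem2 (44.9-fold). Cxcr2, a receptor for CXC chemokines, read 4.50 and 8.69, and the decoy receptor Il1r2 5.21 and 10.39, at least 5.31-fold and at least 17.3-fold higher in Trem2. The lectins Clec4d (5.60 and 11.51) and Clec4e (6.63 and 12.28), the amplifying receptor Trem1 (4.06 and 9.70) and the niacin receptor Hcar2 (6.97 and 12.67) also differed by at least 10.7-fold. Cxcr1, Mmp25 and Cebpe were under the ceiling in both. Lcn2 is in the iron list as well, and Cxcr2, Clec4d, Clec4e, S100a8 and S100a9 recur in the receptor, lectin and S100 lists, so these lists are not separate observations. In sorted bulk RNA, more cells of a type and more of its RNA per cell cannot be told apart.

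**Figure D3:**
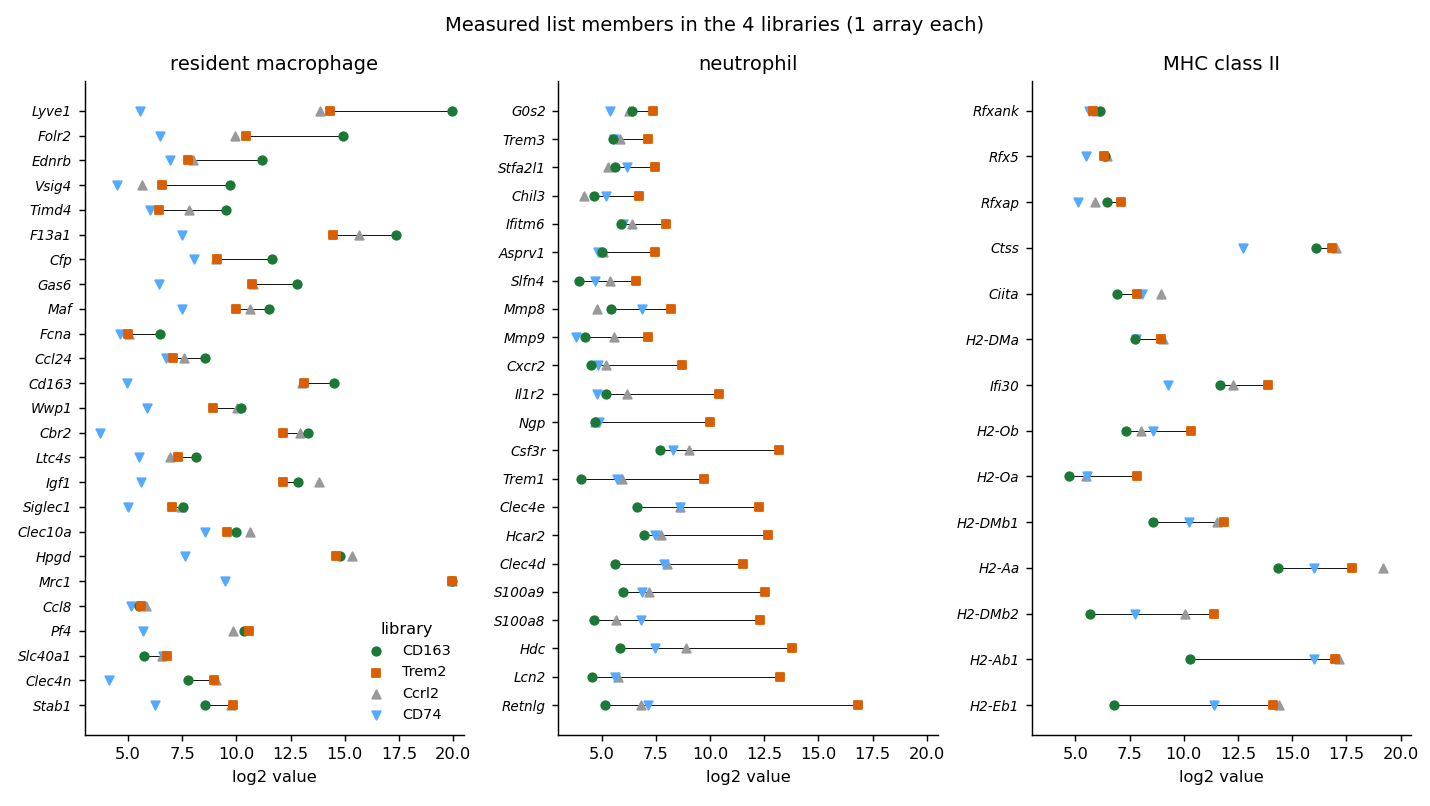
Log2 values (horizontal axis) of the measured members of 3 lists in the 4 libraries, 1 row per gene ordered by the CD163 minus Trem2 difference, with a line joining CD163 and Trem2. The neutrophil panel draws 22 of 35 genes, all above the ceiling in Trem2 and 4 of them above it in CD163. Trem2 is the highest library for every gene drawn, a choice that left out genes under both ceilings, such as Mpo (4.73 in Trem2, 6.92 in CD74). In the class II panel CD163 is the lowest library for 9 of 14 genes and Trem2 lies within 1 log2 unit of Ccrl2 for 7.

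Monocyte genes followed the neutrophil genes in direction. Of 29 on the array, 0 were higher in CD163 and 16 in Trem2, and 1 and 14 after quantile normalization, with a median difference of -2.41. Ly6c2, a surface protein of classical monocytes, read 5.99 in CD163 and 10.98 in Trem2, at least 26.0-fold higher. It was higher still in CD74, at 12.55. Plac8 read 6.30 and 12.52 (74.5-fold), the integrin chain Itgal 5.18 and 10.05, and the matrix protein Thbs1 4.69 and 10.86. Ccr2, the receptor that draws monocytes from blood, was under the ceiling in CD163 at 4.32 and read 7.76 in Trem2 and 8.60 in CD74. It was at least 2.79-fold higher in Trem2 than in CD163 but not counted after quantile normalization. Patrolling monocyte genes were included: Nr4a1 read 10.85 and 15.23 (20.8-fold), Adgre4 7.21 and 11.65 (21.7-fold), and Ace 5.43 and 9.51. Ms4a6c, at 11.37 and 11.64, lay within 2-fold and was counted as higher in CD163 after quantile normalization. Ly6c1 (8.10 and 13.80) is also made by endothelial cells and stands in both lists.

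Genes of MHC class II presentation were lower in CD163. Of 15 on the array, 0 were higher in CD163 and 9 in Trem2, and 7 after quantile normalization, with a median difference of -2.20. Among the chains that display peptide, H2-Eb1 read 6.79 in CD163, 14.12 in Trem2, 14.38 in Ccrl2 and 11.38 in CD74. H2-Ab1 read 10.31, 16.97, 17.15 and 16.01, and H2-Aa read 14.35, 17.78, 19.20 and 16.03, in the same order. CD163 was the lowest library for all 3, which were 161-fold, 101-fold and 10.8-fold higher in Trem2 than in CD163. The chain gene H2-Eb2 was under the ceiling in both, at 6.18 and 4.80. Of the peptide-loading genes, H2-DMb2 read 5.69 in CD163 and 11.40 in Trem2, H2-DMb1 8.59 and 11.87, H2-Ob 7.33 and 10.34, H2-Oa 4.72 and 7.85, and the thiol reductase Ifi30 11.67 and 13.87. The regulators differed less: Ciita, the master activator, read 6.92 and 7.85, Rfx5 6.36 and 6.32, Rfxap 6.48 and 7.11, and Rfxank 6.14 and 5.80, all within 2-fold by the rule used here.

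Promoters of class II genes carry a Y box, a CCAAT-type element, and 4 promoters that hold its letters are shown: 3 of these genes were higher in Trem2 and the other was at background. The letters searched were CTGATTGG, or CCAATCAG on the other strand, in windows from 250 bases before to 50 bases after each gene's start, taken from RefSeq for GRCm38.p6. Of the 8 class II list genes with a window that were higher in Trem2, 3 held the letters and 5 (H2-DMa, H2-DMb1, H2-DMb2, H2-Ob and Ifi30) did not. They were found in 4 of all 12 list genes with a window (33.3%) and in 1166 of 27025 windows of that length (4.31%). Each line gives the 150 bases before the start, 5′ to 3′ on the gene's strand, with the match in capitals, which begins 62, 51, 46 and 103 bases before the start. The windows are at chr17:34305717-34305866 (H2-Eb1, plus strand), chr17:34287824-34287973 (H2-Aa, minus strand), chr17:34092229-34092378 (H2-Oa, plus strand) and chr17:34325525-34325674 (H2-Eb2, plus strand).
H2-Eb1: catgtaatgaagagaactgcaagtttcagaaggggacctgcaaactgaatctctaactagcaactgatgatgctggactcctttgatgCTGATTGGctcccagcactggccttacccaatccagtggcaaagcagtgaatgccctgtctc
H2-Aa: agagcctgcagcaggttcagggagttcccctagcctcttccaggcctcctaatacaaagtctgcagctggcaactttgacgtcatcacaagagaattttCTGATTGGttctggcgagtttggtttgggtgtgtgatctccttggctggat
H2-Oa: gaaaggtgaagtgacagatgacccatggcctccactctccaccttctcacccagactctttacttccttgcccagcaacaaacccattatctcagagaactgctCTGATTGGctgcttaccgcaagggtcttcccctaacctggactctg
H2-Eb2: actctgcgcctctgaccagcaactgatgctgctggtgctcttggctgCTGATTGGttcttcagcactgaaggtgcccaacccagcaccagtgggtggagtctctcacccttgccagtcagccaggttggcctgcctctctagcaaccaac
The letters were present both in H2-Eb1, with a large difference between the libraries, and in H2-Eb2, which was not measured in either. A match is a description of the letters and shows no binding.

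The resistin-like genes Retnla and Retnlg are neighbours on chromosome 16 and went opposite ways. Retnla, a secreted protein made by macrophages under IL-4, read 9.30 in CD163, 6.31 in Trem2, 7.36 in Ccrl2 and 8.36 in CD74, 7.94-fold higher in CD163 than in Trem2. Retnlg, given above, was at background in CD163. The other family members, Retn and Retnlb, were under the ceiling in both. The promoters of the pair are shown because these genes lie side by side and differ in direction: 77 bases of the windows aligned locally without a gap, and 61 of the 77 (79.2%) were identical. The lines give the 150 bases before each start from RefSeq for GRCm38.p6, both on the plus strand, at chr16:48842459-48842608 for Retnla and chr16:48872458-48872607 for Retnlg. Capitals mark the aligned stretch, which runs from 150 to 74 bases before the start in Retnla and from 77 to 1 bases before it in Retnlg.
Retnla: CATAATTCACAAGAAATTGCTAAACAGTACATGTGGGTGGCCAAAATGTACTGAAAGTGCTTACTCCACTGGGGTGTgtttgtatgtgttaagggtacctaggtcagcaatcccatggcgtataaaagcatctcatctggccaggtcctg
Retnlg: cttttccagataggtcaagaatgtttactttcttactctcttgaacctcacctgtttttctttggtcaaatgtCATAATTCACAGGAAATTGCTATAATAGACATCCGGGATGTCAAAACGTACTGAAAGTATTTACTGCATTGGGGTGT
The shared stretch thus lies at different distances from the 2 starts.

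Genes that define macrophages in general were present in both libraries, and their median difference was close to that of all measured genes. All 16 pan-macrophage genes on the array were above the ceiling in both, 0 were higher in CD163 and 6 in Trem2, and after quantile normalization 2 and 1. The list median was -0.675, against -0.69 over all measured genes. The share higher in Trem2 was 37.5%, against 27.6% of all measured genes. The lineage factor Spi1 read 19.72 in both, the Fc receptor Fcgr3 18.95 in both and the complement chain C1qa 17.13 in both, and the lysozyme Lyz2 was saturated in both. Csf1r, through which macrophages receive their growth signal, read 18.60 in CD163 and 19.19 in Trem2, and Adgre1, which encodes F4/80, 13.60 and 13.30. Adgre1 was counted as higher in CD163 after quantile normalization, as was C1qc (15.51 and 15.01). Values of 17 or more are the coarse ones, so equal readings there resolve little. The 6 genes higher in Trem2 were Mpeg1, a pore-forming protein, at 8.90 and 11.84 (7.67-fold), Aif1 (7.53 and 9.73), the Fc receptor Fcgr1 (7.68 and 9.50), the fractalkine receptor Cx3cr1 (7.06 and 8.82), the integrin chain Itgam (11.43 and 12.87) and Tyrobp (9.37 and 10.40). Of these, Mpeg1 was also counted after quantile normalization, and Tyrobp changed sign. Of the lipid-associated macrophage genes, 1 of 21 was higher in CD163 and 5 in Trem2, and 2 and 2 after quantile normalization. Fabp4, a fatty acid carrier also made by endothelial cells, read 12.32 and 17.09 (27.3-fold), and the scavenger receptor Cd36 10.15 and 12.56. Cd9, a tetraspanin used to mark these cells and one of the sort marker genes, read 9.35 and 11.65. The actin cap protein Capg read 8.08 and 6.46, 3.07-fold higher in CD163. Gpnmb was under the ceiling in both, and Lgals3, at 5.24 and 5.80, was near it.

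Inflammatory genes divided. Of 30 NF-kB target genes on the array, 0 were higher in CD163 and 18 in Trem2, and 3 and 12 after quantile normalization, with a median of -1.68. Il1b, the secreted cytokine, read 12.69 in CD163 and 18.34 in Trem2 (50.2-fold). The inflammasome sensor Nlrp3 read 8.89 and 12.91 (16.2-fold), the prostaglandin synthase Ptgs2 8.26 and 12.90 (24.9-fold), and the survival gene Bcl2a1d 6.86 and 11.26 (21.1-fold). Yet Tnf, at 15.38 and 15.04, Il1a, at 9.09 and 9.03, and the feedback inhibitor Nfkbia, at 17.91 and 17.96, lay within 2-fold, and Tnf and Il1a were counted as higher in CD163 after quantile normalization. The immediate early genes showed the same mixture: of 28, 0 were higher in CD163 and 11 in Trem2, and 7 and 7 after quantile normalization. Fos (18.55), Egr1 (19.79) and Atf3 (19.47) had identical values in both. Myc, a growth regulator, read 7.18 and 12.43 (38.1-fold), the phosphatase Dusp5 5.71 and 11.38, the nuclear receptor Nr4a3 7.61 and 12.14, and Jund 13.58 and 15.93.

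Chemokine ligands went both ways, with 4 of 27 higher in each library on the deposited values. Cxcl13, which attracts B cells, read 8.82 in CD163 and 6.32 in Trem2 (5.66-fold), and Ccl6 read 16.06 and 13.82 (4.72-fold). On the other side were Cxcl16, at 11.78 and 14.76 (7.89-fold), Ccl5, at 6.86 and 9.13 (4.82-fold), and Cxcl10, at 16.06 and 18.03 (3.92-fold). Cxcl2 was saturated in both. Of 18 chemokine receptors, 0 were higher in CD163 and 8 in Trem2, and 4 after quantile normalization, among them Ccr1 at 6.57 and 9.74 and Cxcr4 at 12.50 and 14.73. Of 37 interferon response genes, 0 were higher in CD163 and 13 in Trem2, and 3 and 5 after quantile normalization. Ifi209, a DNA sensor, read 7.54 and 9.97, the ubiquitin ligase Herc6 5.83 and 8.37 and Ifit3b 5.47 and 8.64, whereas Ifitm3 (15.00 and 14.65) and Ifi204 (14.13 and 14.26) lay within 2-fold.

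Complement and clearance genes went both ways. Of 20 complement genes, 4 were higher in CD163 and 5 in Trem2, and 7 and 2 after quantile normalization. Beside Vsig4 and Cfp, the component C4b read 8.68 in CD163 and 6.30 in Trem2 (5.21-fold) and the anaphylatoxin receptor C3ar1 15.36 and 13.17 (4.56-fold), while the decay accelerator Cd55 read 5.79 and 9.21, at least 7.62-fold higher in Trem2. Of 26 genes for uptake of dying cells, 5 were higher in CD163 and 6 in Trem2, and 7 and 4 after quantile normalization. Of the receptors of the Gas6 family, Tyro3 read 6.75 in CD163 and 4.16 in Trem2, Axl 8.63 and 11.33, and Mertk 8.08 and 8.85. Tyro3 lay near the CD163 ceiling of 6.28, in the range of background genes counted as higher in CD163, which reached 7.63. The cholesterol exporter Abca1 read 12.99 and 11.90 and its regulator Nr1h3 6.51 and 5.25, both higher in CD163 with the latter at the 2-fold margin and also near the ceiling.

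Among 22 iron and haem genes, 2 were higher in CD163 and 7 in Trem2, and 4 and 3 after quantile normalization. Both were of haem handling: Cd163, given above, and Hmox1, which breaks haem down, at 19.58 in CD163 and 17.96 in Trem2 (3.07-fold). The cystine transporter Slc7a11 read 7.57 and 11.73 (17.9-fold higher in Trem2), and the phagosomal iron transporter Slc11a1 11.04 and 12.78. Of 31 matrix and growth factor genes, 3 were higher in CD163 and 5 in Trem2, and 7 and 3 after quantile normalization: Timp2, the secreted progranulin Grn (17.29 and 15.71) and the growth factor chain Pdgfa (7.16 and 6.09) toward CD163, and the urokinase receptor Plaur (5.84 and 10.32), the collagenase Mmp13 (6.93 and 9.08), Mmp8, Mmp2 and Pdgfb toward Trem2. Of 19 alternative activation genes, 3 were higher in CD163 and 2 in Trem2, and 6 and 0 after quantile normalization. The lectin Mgl2, at 10.91 and 9.37, was higher in CD163 with Retnla and Ccl24, and Arg1 was under the ceiling in both.

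Among 31 transcription factors, 2 were higher in CD163, Maf and Nr1h3, and 12 in Trem2, and 7 and 4 after quantile normalization. Bhlhe40 read 7.92 in CD163 and 11.62 in Trem2 (13-fold), Id2, which restrains basic helix-loop-helix factors, 11.58 and 14.96 (10.4-fold), and Runx3 7.48 and 9.77. Of 25 genes in the list of integrins and adhesion molecules, 1 was higher in CD163 and 14 in Trem2, and 2 and 8 after quantile normalization. The 1 was Emp1, the tetraspan protein given above, which is neither an integrin nor a selectin. Itga4 read 9.51 and 13.02 (11.4-fold), the hyaluronan receptor Cd44 12.33 and 15.57 (9.45-fold) and Cd47, which signals against engulfment, 9.58 and 12.91 (10.1-fold). Lyve1 and Cd44, both hyaluronan receptors, thus differed in direction. Of 21 purinergic and eicosanoid genes, 2 were higher in CD163, the ADP receptor P2ry12 (10.47 and 8.26) and the leukotriene receptor Cysltr1 (8.95 and 7.59), and 6 in Trem2, with 7 and 2 after quantile normalization.

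Of 34 lists with more genes higher in Trem2 on the deposited values, 11 had more higher in CD163 after quantile normalization, among them the complement, clearance, iron, matrix, transcription factor and purinergic lists above. The metabolic and housekeeping lists still had more genes higher in Trem2. Oxidative phosphorylation genes were higher in CD163 for 1 of 20 and in Trem2 for 10, but for 2 and 3 after quantile normalization. Glycolysis genes gave 1 and 8 of 23, and then 2 and 3. The glucose transporter Slc2a1 (5.69 and 9.55) and the lactate exporter Slc16a3 (5.03 and 9.37) were higher in Trem2 under both scalings, and Pfkfb3, which drives glycolytic flux, was higher in CD163 under both (10.57 and 8.59). Of 13 housekeeping genes 0 were higher in CD163 and 4 in Trem2, then 1 and 3. Lysosome genes gave 0 and 4 of 25, then 3 and 1, and MHC class I genes 0 and 6 of 15, then 2 and 1. Heat shock genes gave 1 and 4 of 14, then 4 and 0. All housekeeping and heat shock genes on the array were measured. Their shares higher in Trem2, 30.8% and 28.6%, were near the 27.6% of all measured genes. Of 25 cell cycle genes 0 were higher in CD163 and 2 in Trem2, Mki67 (7.55 and 9.13) and Stmn1 (8.12 and 9.12), and neither after quantile normalization.

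The remaining families moved through few members. Of 29 C-type lectin and Toll-like receptor genes, 2 were higher in CD163, Mgl2 and Clec1b (6.69 and 5.18), and 6 in Trem2, with 5 and 4 after quantile normalization. Clec1b lay near the CD163 ceiling of 6.28. Tlr13 read 5.31 in CD163 and 9.69 in Trem2 and Tlr3 6.05 and 8.6, both higher in Trem2, whereas Tlr7 (17.48 and 17.32) and Tlr4 (9.60 and 9.58) were close. Of 11 Fc receptor genes, 0 were higher in CD163 and 3 in Trem2, and 1 and 1 after quantile normalization, with Fcgr4 at 5.09 and 8.63. The S100 family gave 0 and 3 of 14 under both scalings, S100a8, S100a9 and S100a11 (10.39 and 13.89). The MS4A family gave 0 and 3 of 13, then 1 and 1, with Ms4a4c at 6.92 and 9.89.

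**Figure D4:**
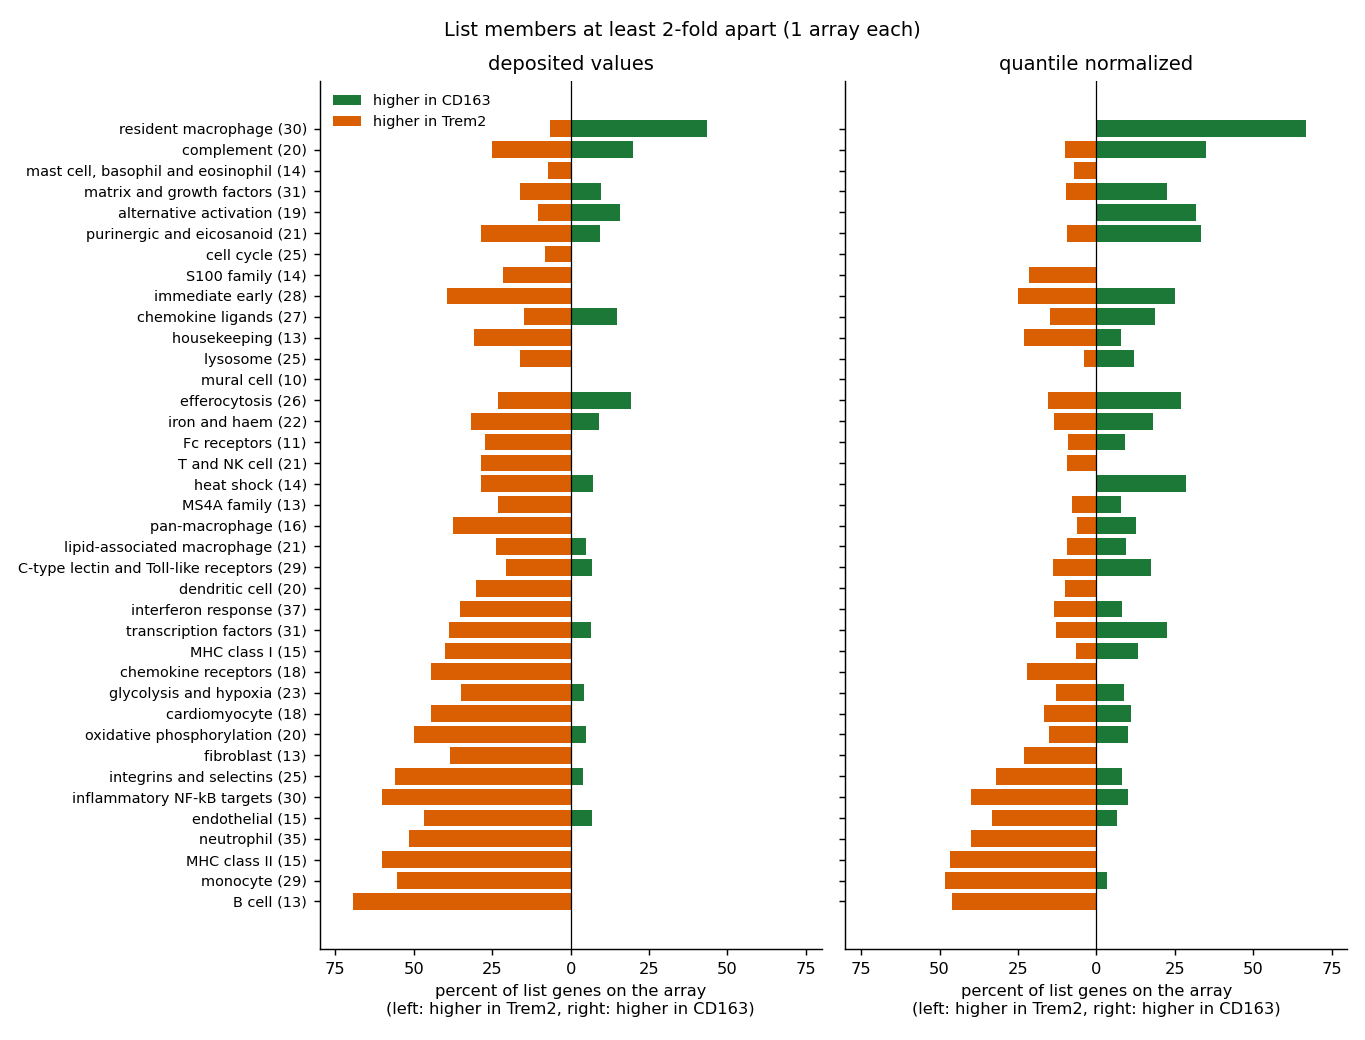
Percent of each list's genes on the array that were at least 2-fold higher in CD163 (right, green) or in Trem2 (left, orange), for deposited values and after quantile normalization, with the number of genes on the array in brackets and lists of 10 or more genes shown. Lists are ordered by their median difference over all genes on the array. The resident macrophage list reaches farthest to the right in both panels, at 13 of 30 and 20 of 30 genes, and many lists in the middle shorten on the left and lengthen on the right.

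Markers of several other cell types were also higher in the Trem2 library, and their part in the differences above was not tested. The share higher in Trem2 was 69.2% for B cell, 28.6% for T and NK cell and 30.0% for dendritic cell genes. Over all genes it was 12.1%, each on the deposited values. Of 13 B cell genes, 9 were higher in Trem2 and 0 in CD163, and 6 and 0 after quantile normalization. They were above the ceiling for 4 genes in CD163, 13 in Trem2, 9 in Ccrl2 and 8 in CD74, and the log2 of their summed level was 11.05 in CD163 and 14.36 in Trem2. The B cell receptor chain Cd79a read 6.31 in CD163, 11.80 in Trem2, 9.66 in Ccrl2 and 10.70 in CD74. Of 21 T and NK cell genes 6 were higher in Trem2 (2 after quantile normalization), with 3 above the ceiling in CD163 and 11 in Trem2 and summed levels of 9.29 and 11.36. The CD74 library had more of them above its ceiling than Trem2, at 15, and Ccrl2 had 2. Cd3d, Cd3e, Cd3g and Cd8a were under the ceiling in CD163 and Trem2, while the granzyme Gzma read 6.42 in CD163, 9.71 in Trem2 and 13.01 in CD74. Of 20 dendritic cell genes 6 were higher in Trem2 (2 after quantile normalization), with 4 and 10 above the ceiling and summed levels of 10.66 and 12.72, and the defining genes Flt3, Xcr1, Clec9a and Zbtb46 were under the ceiling in both.

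Cells of the heart wall gave a like picture for endothelial, fibroblast and cardiomyocyte genes (46.7%, 38.5% and 44.4% higher in Trem2), but not for mural cell genes. For mast cell, basophil and eosinophil genes the share was 7.14%, under the 12.1% of all genes. Of 15 endothelial genes, 1 was higher in CD163 (Esam, at 7.27 and 5.78) and 7 in Trem2, and 1 and 5 after quantile normalization, with 9 and 11 above the ceiling and summed levels of 12.69 and 17.29. These sums lie close to the values of Fabp4 alone, 12.32 and 17.09, a gene that is also in the lipid-associated macrophage list. The junction protein Cdh5 read 7.47 and 11.31, and Tek and Cldn5 were under the ceiling in both. Of 13 fibroblast genes 5 were higher in Trem2 (3 after quantile normalization), with 4 and 10 above the ceiling and summed levels of 9.59 and 13.20, led by the proteoglycan Dcn at 7.01 and 12.67, while the collagen gene Col1a1 read 6.82 and 6.91. Of 18 cardiomyocyte genes 8 were higher in Trem2 and 0 in CD163, and 3 and 2 after quantile normalization, with 13 and 16 above the ceiling and summed levels of 12.91 and 14.71. The myosin light chain Myl2 was well above the ceiling in both, at 11.04 and 13.39. Of 14 mast cell, basophil and eosinophil genes only Cpa3 was higher in Trem2 (6.24 and 9.54), with 1 and 7 above the ceiling and summed levels of 8.74 and 10.27, and the eosinophil genes Prg2, Epx and Siglecf were under the ceiling in both. Of 10 mural and 6 erythrocyte and platelet genes, 0 were higher in either library, with 0 above the ceiling in CD163 and 3 and 2 in Trem2.

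For the genes higher in CD163, the libraries that the difference did not use lay mostly on the Trem2 side of the midpoint between CD163 and Trem2. Picking genes by their CD163 and Trem2 values can itself move another library across that midpoint, most of all for dim genes. Shares over all measured genes carry no such choice, so the comparison with them cannot show which population Ccrl2 or CD74 resembles. The same limit holds for the genes higher in Trem2, and the part of this choice in the shares was not tested. Of those 518 genes the Ccrl2 library was nearer to CD163 than to Trem2 for 19.7%, against 32.3% of all measured genes, and the CD74 library for 32.2%, against 65.5%. The share for CD74 was smaller at higher levels: it was 37.5% for the 384 genes with a CD163 value under 8, 24.7% for the 73 from 8 to 10, 15.6% for the 32 from 10 to 12 and 0 of 29 genes from 12 on. A value on the Trem2 side can also lie below Trem2 itself. CD74 did so for 178 of the 518, 93 of the 384, 30 of the 73, 26 of the 32 and all of the 29. Ccrl2 lay below Trem2 for 155 of the 518. For the 2354 genes higher in Trem2 the libraries parted, with Ccrl2 nearer to CD163 for 18.9% and CD74 for 81.9%. After quantile normalization these were 29.3% and 47.0% of 826 genes, so the place of CD74 among the Trem2 genes rests on the scaling. On the deposited values CD74 read below CD163 itself for 1206 of the 2354 genes. Genes that were also at least 2-fold above both other libraries numbered 78 of 518 (15.1%) for CD163 and 360 of 2354 (15.3%) for Trem2.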

How the data were processed

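Total RNA of each sorted population was amplified with a kit for small inputs and hybridised to a Clariom S mouse array. Background correction, normalization and summary by robust multichip average (RMA) were done by the authors, per the labels' protocols. GeneSpring is named there too, and Affymetrix Expression Console in the submitters' processing notes. For RMA settings and annotation build, nothing is given in the sources used here. Each library has 1 deposited log2 column, a scale inferred from the range of its values.

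From these, each gene took its probe set with the highest mean over the 4 columns (55 genes had several), with symbols from the platform annotation: 19572 of 28846 probe sets had 1 symbol and 0 had several. Folds are on the log2 scale of the deposited values, with no pseudocount. Saturation was a value within 0.015 of 19.93. With 1 array per group no test, SD or p-value was computed. The members of the 40 lists (779 genes, 712 on the array, 578 measured, 67 not matched) and the list choices were made with earlier results of these data known. Named were the sort marker genes, the 15 largest differences each way, up to 6 members per list (largest differences first), members that show a list is not uniform, and the 2 genes on either side of each threshold. Predicted and unnamed genes, antigen receptor segments, histones, chemosensory and sex-linked genes were left out of this naming. Neighbouring genes and promoters came from RefSeq tables of GRCm38.p6. Alternatives were quantile normalization over 4 or 2 columns, median centring, other filters and fold thresholds, the mean over probe sets, and leaving out saturated genes. Python 3.11.15, numpy 2.4.6, pandas 2.3.3, matplotlib 3.10.9 and biopython 1.88 were used, the last for the local alignment (match 1, mismatch -1, gap opening -4, gap extension -1).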

Additional observations from a re-analysis of the deposited data

How the results depend on the processing

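No paired analysis was possible because each population was 1 library. The 518 genes higher in CD163 became 1331 with quantile normalization over 4 columns, 1419 over 2 columns, 345 with median centring, 2011 without a filter, 800 with a filter at the library median, 320 with the ceiling at the 99th percentile, 996 at 1.5-fold and 50 at 4-fold. The 2354 genes higher in Trem2 became 826 and 868 with quantile normalization over 4 and 2 columns and 827 at 4-fold. The 13 resident macrophage genes higher in CD163 became 20 with either quantile normalization and 8 at 4-fold, whereas the counts of neutrophil, monocyte and class II genes stayed within 1.5 times under every alternative run. Of 221 named genes, 19 changed sign with quantile normalization over 4 columns, all from higher in Trem2 to higher in CD163, and 13 of these had not passed the 2-fold margin on the deposited values. A further 50 no longer passed the margin, with no change of sign, and 4 newly passed it. The other 6 that changed sign were higher in CD163 by 0.11 (Alox5ap), 0.27 (Hspd1), 0.008 (Hspe1), 0.20 (Stmn1), 0.25 (Tapbp) and 0.26 (Tyrobp) over 4 columns, and by 0.10, 0.29, 0.010, 0.21, 0.27 and 0.28 over 2. The cause was not tested. Signal over background limits the dim genes: 241 of the 518 and 633 of the 2354 differences are lower bounds.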

Other observations

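Promoters of the genes on each side differed in CpG content, a sequence feature that the comparison did not use. In windows from 250 bases before to 50 after the start, the ratio of observed to expected CpG had a median of 0.759 over 6970 measured genes with a RefSeq window, 0.513 over 413 genes higher in CD163 and 0.803 over 1936 genes higher in Trem2. For the 39 genes at least 4-fold higher in CD163 it was 0.325. Level moved with it: among genes whose higher value was 10 or more, the medians were 0.701 for 52 genes higher in CD163, 0.792 for 563 higher in Trem2 and 0.767 for all 912. After quantile normalization they were 0.681 over 1074 genes higher in CD163 and 0.771 over 672 higher in Trem2. The medians carry no test, and the part of dim genes in them was not tested.

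Along the chromosomes, the next measured gene was higher in CD163 too for 8.33% of the 516 genes higher in CD163 that had such a neighbour, against 6.07% of all measured genes. It was higher in Trem2 too for 30.1% of the 2347 genes higher in Trem2, against 27.6%. The longest runs, of 8 genes each, were higher in Trem2, from Stk17b to Mob4 on chromosome 1 and from Tlk2 to Ddx42 on chromosome 11. Neighbours that went opposite ways included, beside Retnla and Retnlg, F13a1 and Ly86 on chromosome 13 and Tns1 and Cxcr2 on chromosome 1. These pairs were picked after their values were seen.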
